A study of Mus musculus with 2 samples.

Results

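The genes described here are 42 regulators of chromatin and DNA methylation, chosen by gene symbol from the 31253 genes in the count tables. They comprise polycomb proteins, enzymes and a reader of DNA methylation, histone acetyltransferases and deacetylases, demethylases, nucleosome remodellers and the shared partners of the KMT2 methyltransferases. They were measured in single Treg cells from mouse spleen, with or without a floxed Kmt2d, which encodes a histone H3 lysine 4 methyltransferase. Both groups of mice carried a fusion of YFP and Cre driven from the Foxp3 locus, so the Cre acts in cells that have expressed Foxp3, and the controls carried it too. The Foxp3YFP-Cre Kmt2d+/+ library (here +/+) and the Foxp3YFP-Cre Kmt2dfl/fl library (here fl/fl) were each 1 pool of sorted CD4+FoxP3+ spleen cells from 3 mice, and the labels give neither age nor sex nor treatment. With 1 library per genotype there is no replicate spread and no test: every difference below is between these 2 libraries or between cells of 1 library. Intervals are 95% intervals for counting error only.

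DNA in the nucleus is wound on histones, and the enzymes in this set add, remove or read marks on histones and on cytosine, or move nucleosomes. Polycomb complexes PRC1 and PRC2 mark and hold genes silent, DNMT enzymes methylate cytosine and TET enzymes oxidise that mark, acetyltransferases and deacetylases act against each other on histone lysines, and SWI/SNF and CHD proteins use ATP to move nucleosomes. In Treg cells the Foxp3 gene and other lineage genes are known to be kept open by loss of DNA methylation, and EZH2 is known to be needed in activated Treg cells.

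Cells were assigned to gates by UMI counts (unique molecular identifiers, the count of captured transcripts) of marker genes, none of them a member. Central Treg cells (1646 in the +/+ and 2515 in the fl/fl library) carried more counts of central markers, among them Ccr7, Lef1 and Tcf7, and effector Treg cells (1360 and 678) more Icos, Tigit, Maf, S100a4, Itgb1, Cxcr3, Klrg1 and Cd44 counts. With the cells between them, all Treg cells numbered 3967 and 3944. The all Treg gate thus held more central and fewer effector cells in fl/fl than in +/+, and its ratios include this make-up. Cells in the conventional CD4 (805 and 749), CD8 (278 and 381) and B cell (489 and 1197) gates passed the sort without being called Treg here. A conventional CD4 cell is one with no UMI of Foxp3 or Ikzf2, so that gate can hold Treg cells in which neither was captured. Levels are CPM, counts scaled to the same UMI total in each library and gate, from 2135735 to 31618160 UMIs a group, and 15 barcodes occur in both libraries. Foxp3, sparse in these counts, was at 43.5 and 26.7 CPM in the central and 37.0 and 27.8 CPM in the effector Treg gate. Some markers differed between the libraries within a gate. The summed level of 5 CD8 and cytotoxic markers was 697 and 1631 CPM in the effector Treg gate and 528 and 2343 CPM in the conventional CD4 gate of the +/+ and fl/fl library, most of it Ccl5 (514 and 1317 CPM in the effector gate). The effector markers of the effector gate differed in both directions. Icos was at 425 and 601 CPM, Maf at 450.2 and 598 CPM, Tigit at 35.8 and 49.7 CPM and Cxcr3 at 98.9 and 104 CPM, higher in fl/fl. S100a4 was at 712 and 520.5 CPM, Cd44 at 254 and 171 CPM, Itgb1 at 404 and 377 CPM and Klrg1 at 54.9 and 48.9 CPM, lower in fl/fl. A sum of 8 Treg markers was at 2901 and 2253 CPM in that gate. Kmt2d itself was at 72.1 and 71.5 CPM in the central and 66.8 and 55.5 CPM in the effector Treg gate. Outside the Treg gates it was at 77.8 and 69.9 CPM in conventional CD4, 78.7 and 60.9 CPM in CD8 and 60.7 and 43.0 CPM in B cells. The labels do not give the floxed exons, and 3' tags outside them cannot check the deletion.

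Between genotypes few members differed by 1.5-fold. A gene was called higher or lower where it reached 10 CPM in either group, differed at least 1.5-fold and had an interval excluding no difference, a rule of size that is not a test. Of the 42 members, 41 were measured in each comparison, and Pagr1a, a partner of KMT2C and KMT2D, was under 10 CPM everywhere. In the central Treg gate 0 members were called higher and 1 lower in fl/fl, where the same rule called 2.97% higher and 8.01% lower among all measured genes, and the members' median log2 ratio was -0.14 against -0.10 over all genes. In the effector Treg gate 1 was called higher and 2 lower (background 4.17% higher and 8.65% lower, medians -0.11 and -0.07). In all Treg cells 0 were called higher and 1 lower (background 2.55% higher and 9.45% lower), in conventional CD4 cells none either way (background 2.23% higher and 3.12% lower), in CD8 cells 1 higher (background 1.94% higher and 3.63% lower) and in B cells 2 higher (background 2.67% higher and 3.07% lower). As shares, 2.44% of the measured members were called in central, 7.32% in effector and 2.44% in all Treg cells, where the rule called 10.99%, 12.8% and 11.99% of all genes, a gap that was not tested. With cells thinned to 2500 UMIs the members' shares were 4.88%, 14.6% and 2.44%, against 13.1%, 13.5% and 13.9% of all genes. The effector share then no longer lay below that of all genes. Smaller differences beyond counting error were common: 29 of 41 members in the central gate had an interval excluding 0, 5 above and 24 below (70.7%, against 55.1% of all measured genes), and 19 in the effector gate, 5 above and 14 below (46.3% against 42.3%). Of all measured genes 1191 lay above and 3125 below in the central gate, and 1296 above and 2241 below in the effector gate. These intervals are not scaled by the median of all genes and narrow as counts rise, and the part of either was not tested.

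**Figure D1:**
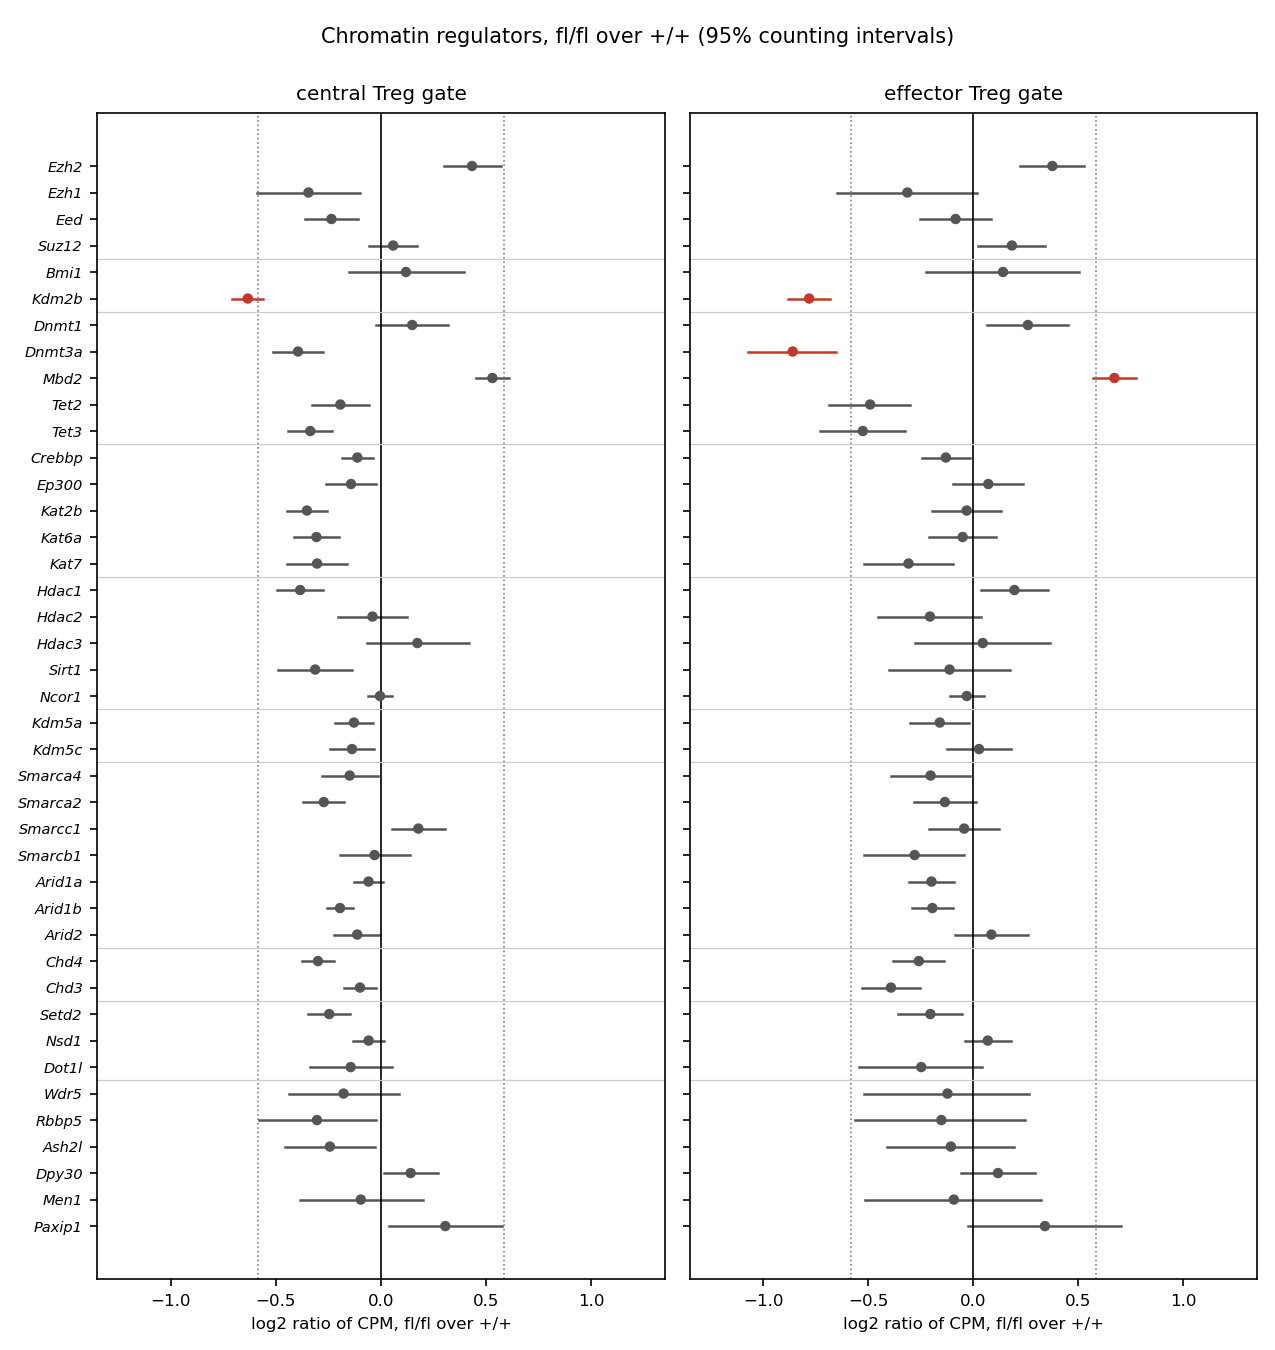
Log2 ratio of CPM, fl/fl over +/+, of the 41 measured members in the central (left) and effector (right) Treg gates, 1 library each. Lines are 95% counting intervals, dotted lines mark 1.5-fold, grey lines separate roles and red marks called members. Kdm2b is low in both panels, Dnmt3a low and Mbd2 high in the effector panel.

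Kdm2b was called lower in fl/fl in the central gate, the effector gate and all Treg cells. It encodes a CpG-island binding protein that brings a variant PRC1 complex to DNA and demethylates histone H3 (GRCm38 chromosome 5, 122870665 to 122989823, minus strand). In the +/+ and fl/fl library it was at 252 and 163 CPM in the central Treg gate, 353 and 205 in the effector Treg gate, 182 and 177 in the conventional CD4 gate, 150.3 and 135 in the CD8 gate and 88.1 and 71.01 in the B cell gate. Both Treg gates were lower in fl/fl, and the other 3 gates lay closer together, with intervals that include no difference in the conventional CD4 and CD8 cells. The log2 ratio was -0.63 (-0.71 to -0.56) in central, -0.78 (-0.88 to -0.68) in effector and -0.78 (-0.83 to -0.73) in all Treg cells. It was -0.04 (-0.18 to 0.10) in conventional CD4, -0.16 (-0.37 to 0.06) in CD8 and -0.31 (-0.52 to -0.11) in B cells. The 961 and 751 Treg cells that fell between the central and effector gates, a group examined after the other values were seen, were at 307 and 181 CPM, a ratio of -0.76. Within the +/+ library Kdm2b was the 1 member called between all Treg and conventional CD4 cells, higher in Treg cells by 0.71 on the log2 scale (background 9.37% higher and 2.75% lower). Within the fl/fl library that ratio was -0.03 (-0.14 to 0.09) and no member was called (background 7.89% higher and 7.11% lower). These last ratios use the same cells as the genotype ratios. The share of central and effector cells in the all Treg gate also differed between the libraries. The part of that make-up in the all Treg ratios was not tested. The marker differences of the effector gate given above stand beside its Kdm2b value, and their part was not tested. In the central gate the CD8 markers summed to 216 and 123 CPM. There Icos was at 63.6 and 123 CPM and 13 cycling markers summed to 381 and 547 CPM, +/+ and fl/fl. The 8 Treg markers summed to 1980 and 1902 CPM and 6 naive T cell markers to 2036 and 2183 CPM. Single markers within these sums differed in both directions. Nrp1 was at 136 and 34.6 CPM and Tnfrsf18 at 182 and 85.9 CPM, but Il2ra at 359 and 427 CPM and Ctla4 at 657 and 793 CPM. Of the naive markers, Igfbp4 was at 65.8 and 142 CPM and Actn1 at 149 and 82.4 CPM. The part of these in the central Kdm2b ratio was not tested. The central call ended under median scaling, in which the median ratio over all genes is set to 0 (-0.53), and when Treg cells were taken from a Foxp3 UMI alone (-0.50), and the effector call held in both.

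Bmi1, the PRC1 subunit that stimulates the ubiquitin ligase of the complex, did not share this pattern. It was at 12.5 to 20.4 CPM over the 10 gate and library groups, and its genotype ratio was 0.12 (-0.15 to 0.40) in central and 0.14 (-0.22 to 0.50) in effector Treg cells.

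Among the genes of DNA methylation, Dnmt3a was lower and Mbd2 higher in fl/fl in all 5 gates. Dnmt3a, the enzyme that sets new methylation marks (GRCm38 chromosome 12, 3806007 to 3914443, plus strand), was at 88.03 and 66.9 CPM in the central Treg gate, 87.1 and 47.97 in the effector Treg gate, 60.7 and 43.8 in the conventional CD4 gate, 48.2 and 40.8 in the CD8 gate and 43.6 and 32.3 in the B cell gate. Its lowest ratio was in effector Treg cells, -0.86 (-1.07 to -0.65), where it was called lower, against -0.40 (-0.52 to -0.27) in central Treg, -0.47 (-0.74 to -0.20) in conventional CD4, -0.24 (-0.63 to 0.15) in CD8 and -0.43 (-0.73 to -0.13) in B cells. With Treg cells taken from a Foxp3 UMI alone the effector ratio was -0.37 and no longer called. Mbd2, which binds methylated CpG and recruits the NuRD complex (GRCm38 chromosome 18, 70568189 to 70626131, plus strand), was at 164 and 237 CPM in the central Treg gate, 187 and 297 in the effector Treg gate, 204 and 248 in the conventional CD4 gate, 229 and 237 in the CD8 gate and 110.1 and 154 in the B cell gate. It was called higher in effector Treg cells, 0.67 (0.57 to 0.77), and lay just under the 1.5-fold line in central Treg cells, 0.53 (0.45 to 0.61). In CD8 cells the interval of the ratio included no difference, 0.05 (-0.12 to 0.22). The CD8 markers and the effector markers, in both directions, also differed between the libraries in the effector gate, as given above, and their part in the Dnmt3a and Mbd2 ratios was not tested. Without cycling cells the effector ratios were -0.96 for Dnmt3a and 0.74 for Mbd2, both still called.

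The oxidases Tet2 and Tet3, which start the removal of methylation, were also at lower levels in fl/fl Treg cells, without reaching the call. Tet2 was at 66.6 and 58.2 CPM in the central and 84.5 and 60.1 CPM in the effector gate, a ratio of -0.19 (-0.33 to -0.06) and -0.49 (-0.69 to -0.30). Tet3 was at 113 and 89.5 CPM and 79.2 and 54.96 CPM, a ratio of -0.34 (-0.44 to -0.23) and -0.53 (-0.73 to -0.33). In B cells Tet3 was at 65.6 and 65.8 CPM, a ratio of 0.00 (-0.22 to 0.24).

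**Figure D2:**
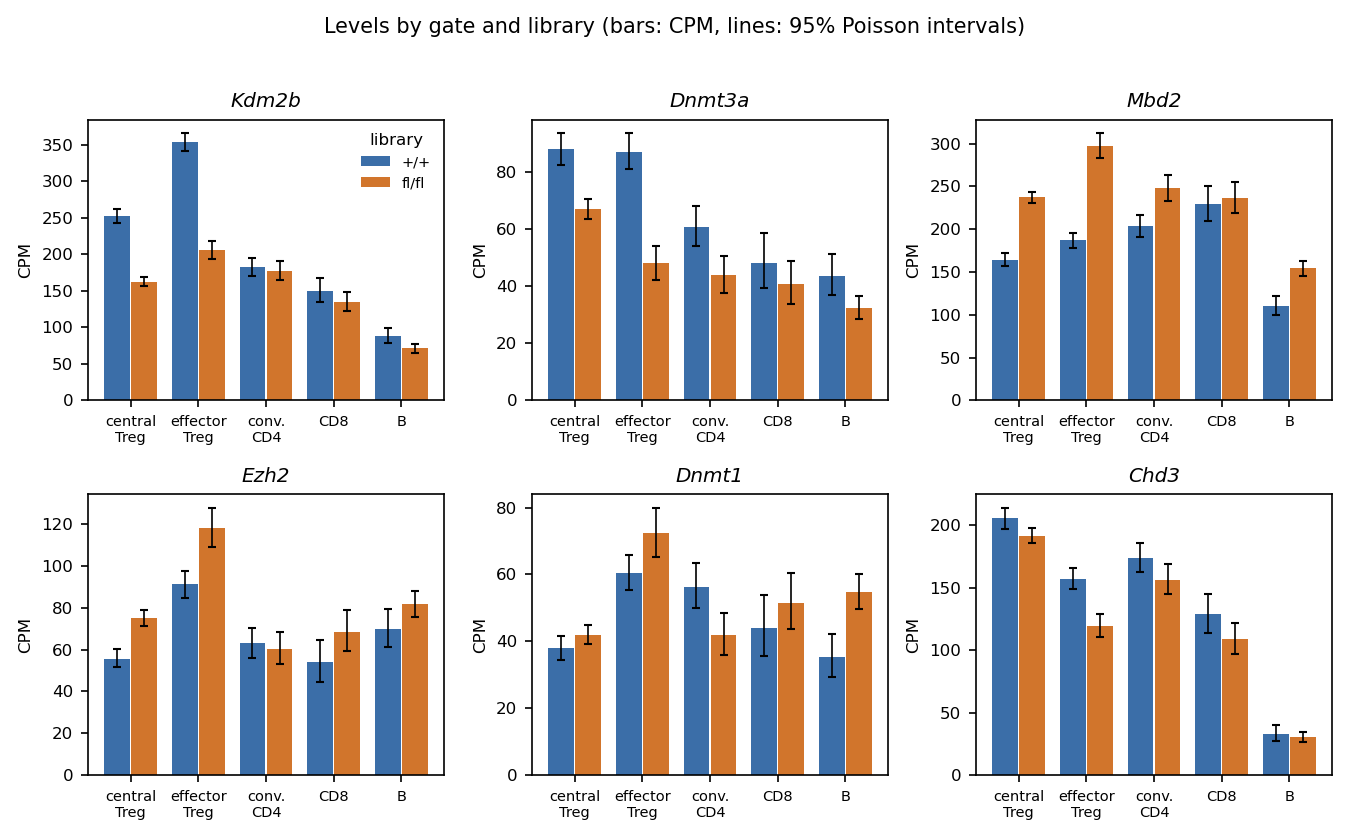
CPM (linear axis from 0) of 6 members in 5 gates of the +/+ (blue) and fl/fl (orange) library. Bars are the level of 1 library and lines 95% Poisson intervals; Kdm2b differs most in the Treg gates, while Chd3 is lowest in B cells of both libraries.

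Direction over the 5 gates was also counted, without regard to size. Lower in fl/fl in all 5 gates were 11 members, namely Kdm2b, Dnmt3a, Tet2, Kat7, Sirt1, Smarca4, Arid1a, Arid1b, Chd4, Chd3 and Setd2, and higher in all 5 were Mbd2 and Hdac3. Over the genes measured in all 5 gates, 18% were lower and 5.78% higher in all 5. The median of all genes was itself below 0 in each gate. After scaling by it 8 members stayed lower in all 5 gates, with Arid1a, Chd4 and Chd3 no longer among them, and Mbd2 and Hdac3 stayed higher, against 10.3% lower and 10.8% higher of all genes. The 5 gates come from the same 2 libraries and are not 5 replicates.

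Between the Treg gates of each library the members that stood highest in effector cells were Ezh2, the catalytic subunit of PRC2 that methylates histone H3 lysine 27 (GRCm38 chromosome 6, 47530139 to 47595341, minus strand), and Dnmt1, which copies DNA methylation after replication (GRCm38 chromosome 9, 20907209 to 20959888, minus strand). Their promoters are shown because both members were called higher in effector than central cells, and cycling cells were also more frequent in the effector gate. The windows, from RefSeq on GRCm38.p6, run from 250 bases before to 50 after an annotated start, on the minus strand, and capitals mark matches to TTTNNCGC on either strand, an E2F-like motif. Matches may overlap, and of the 3 in the Dnmt1 window 2 do. The Dnmt1 window is the 1 of its 3 entries that holds a match. The other 2, at 20952930 to 20953229 and 20959839 to 20960138, hold 0 matches and lie upstream of it. The printed window is thus the most downstream of the annotated Dnmt1 starts in the table.
Ezh2 promoter, chr6:47594981-47595280: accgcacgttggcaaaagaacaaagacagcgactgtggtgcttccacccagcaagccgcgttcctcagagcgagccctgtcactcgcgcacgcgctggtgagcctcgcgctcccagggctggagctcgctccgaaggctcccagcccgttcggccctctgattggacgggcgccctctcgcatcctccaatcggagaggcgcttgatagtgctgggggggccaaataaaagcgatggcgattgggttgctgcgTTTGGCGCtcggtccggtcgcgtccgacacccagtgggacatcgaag
Dnmt1 promoter, chr9:20952574-20952873: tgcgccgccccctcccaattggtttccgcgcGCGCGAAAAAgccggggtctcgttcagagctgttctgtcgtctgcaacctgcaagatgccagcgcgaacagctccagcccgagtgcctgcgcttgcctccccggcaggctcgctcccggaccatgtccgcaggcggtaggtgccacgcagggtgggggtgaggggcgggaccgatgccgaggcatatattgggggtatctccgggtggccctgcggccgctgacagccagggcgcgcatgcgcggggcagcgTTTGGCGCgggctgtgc
The motif was the only one searched and was chosen after the values were seen. It occurs in 5.17% of the 32851 RefSeq promoters of that length in the table, and 3 or more matches in 0.0365%. Of the 42 members 33 matched the promoter table used here, and 5 of them hold a match: Ezh2, Dnmt1, Suz12, Ep300 and Arid1a. Counted by entry, as the 5.17% is, 5 of the 49 member promoters hold a match. The members not matched to that table were Arid2, Ash2l, Chd3, Hdac1, Hdac3, Kat6a, Kdm5a, Mbd2 and Nsd1. The member promoters held a median of 28 CG dinucleotides (1 to 57 over 49 entries) against 7 in all promoters of the table. The motif itself holds a CG, and the part of this in the matches was not tested. A match is a description of letters and not of binding.

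Ezh2 was at 55.7 and 75.2 CPM in the central Treg gate, 91.1 and 118 in the effector Treg gate, 62.9 and 60.4 in the conventional CD4 gate, 53.8 and 68.5 in the CD8 gate and 69.9 and 81.7 in the B cell gate. The effector gate was the highest in both libraries, 0.71 above the central gate on the log2 scale in +/+ and 0.65 in fl/fl. Dnmt1 was at 37.9 and 41.96 CPM in the central Treg gate, 60.4 and 72.3 in the effector Treg gate, 56.3 and 41.9 in the conventional CD4 gate, 44.01 and 51.5 in the CD8 gate and 35.2 and 54.6 in the B cell gate, and its effector over central ratio was 0.67 (0.49 to 0.86) in +/+ and 0.79 (0.61 to 0.96) in fl/fl. Of 41 members, 2 were called higher and 1 lower in effector cells of the +/+ library (background 16.1% higher and 4.34% lower), and 2 higher and 2 lower in the fl/fl library (background 19.7% higher and 4.7% lower). The members' median was 0.10 and 0.13 against 0.18 and 0.21 over all genes, and scaling by the latter turned the members' medians to -0.079 and -0.073. As shares, 7.32% and 9.76% of the measured members were called.

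Cycling cells differed between the gates in the same direction. Cells with at least 2 UMIs over 8 proliferation genes made up 3.34% of central and 9.78% of effector cells in +/+, and 7.55% and 16.5% in fl/fl, a count that rises with depth (median UMIs 6083, 5151, 7057 and 6082). Ezh2 was at 158 to 275 CPM in cycling and 38.7 to 74.7 CPM in the other cells over the 10 groups. Of all Ezh2 counts in a group, 20.5 to 56.9% came from cycling cells, and of Dnmt1 counts 23.9 to 62.1%. Without cycling cells the effector over central ratio of Ezh2 was 0.37 (0.18 to 0.56) in +/+ and 0.52 (0.32 to 0.72) in fl/fl, and that of Dnmt1 0.28 (0.04 to 0.52) and 0.54 (0.26 to 0.81), none of them called. Other settings also ended these calls, among them median scaling, weighting cells alike and leaving out cells above 3 times the median UMI count, and over all settings that did so at 1.5-fold Ezh2 was at 0.32 to 0.53 in +/+ and 0.44 to 0.58 in fl/fl, and Dnmt1 at 0.28 to 0.54 and 0.50 to 0.58. The genotype ratio of Ezh2 moved in the same way, from 0.43 (0.30 to 0.57) to 0.13 (-0.03 to 0.29) in central and from 0.38 (0.22 to 0.53) to 0.28 (0.06 to 0.51) in effector Treg cells.

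**Figure D3:**
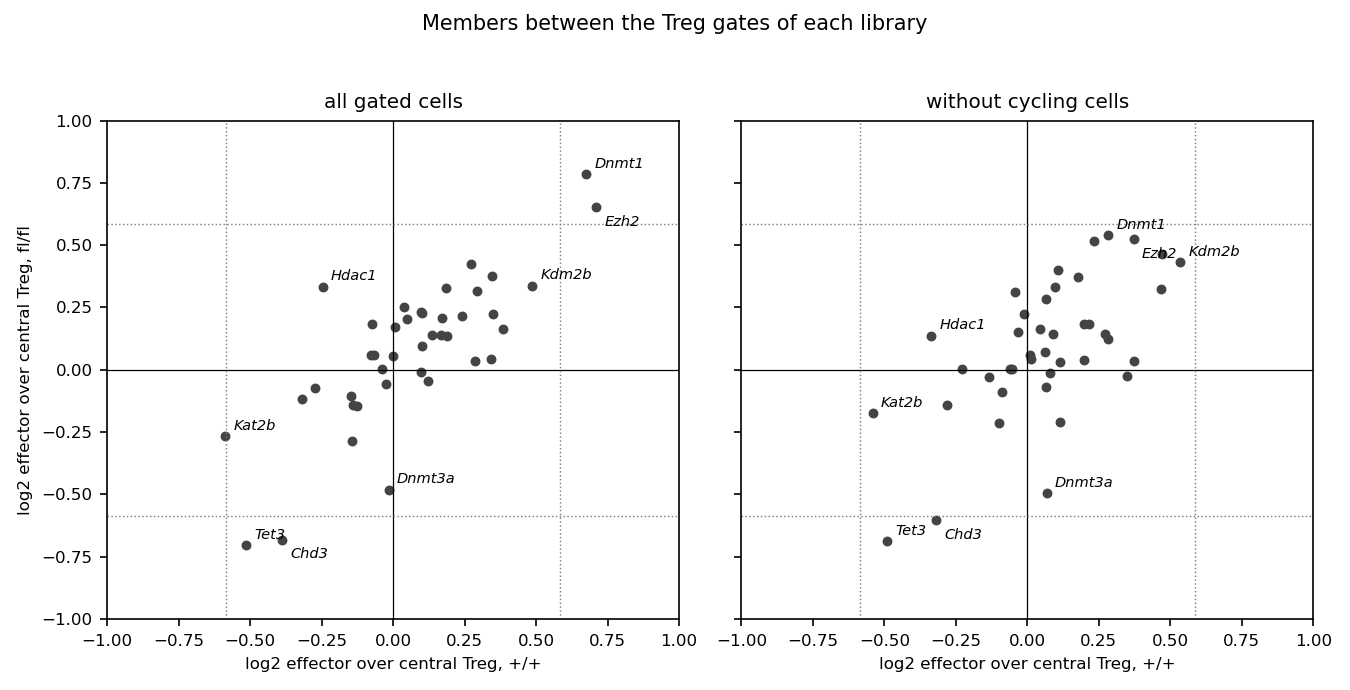
Log2 ratio of CPM, effector over central Treg gate, of 41 members in the +/+ library (x axis) and the fl/fl library (y axis), 1 point a member, in all gated cells (left) and without cycling cells (right). Dotted lines mark 1.5-fold; Ezh2 and Dnmt1 are past them on both axes on the left and on neither on the right.

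The other PRC2 subunits differed less. Suz12 and Eed, both needed for the activity of the complex, were at 74.02 to 109 and 60.2 to 92.05 CPM over the 10 groups, with an effector over central ratio of 0.10 and 0.23 for Suz12 and 0.27 and 0.42 for Eed in +/+ and fl/fl, the first of them under the median of all genes. Ezh1, the second catalytic subunit, was at 16.6 to 26.8 CPM. In the central gate its genotype ratio was -0.35 (-0.59 to -0.10), below 0 where that of Ezh2 was above 0.

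The members called lower in effector than central cells were Tet3 and the remodeller Chd3 in fl/fl and the acetyltransferase Kat2b in +/+. The ratio of Tet3 was -0.70 (-0.89 to -0.52) in fl/fl and -0.51 (-0.65 to -0.38) in +/+, where it was not called. That of Chd3 was -0.68 (-0.80 to -0.56) in fl/fl and -0.39 (-0.49 to -0.29) in +/+. That of Kat2b was -0.59 (-0.71 to -0.47) in +/+, at the line of 1.5-fold, and -0.27 (-0.41 to -0.13) in fl/fl. In all, 10 members in +/+ and 7 in fl/fl had an interval wholly below 0. Of all genes these were 1211 of 8312 in +/+ and 1149 of 8164 in fl/fl. All 3 called members lay below 0 in both libraries, and whether the libraries differ was not tested. Tet3 was at -0.25 in fl/fl when Treg cells were taken from a Foxp3 UMI alone, and then not called. Kat2b was not called under 7 settings at 1.5-fold (-0.57 to -0.49), and Chd3 in fl/fl was not called without the margin between the central and effector markers (-0.58).

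Between genotypes the 5 acetyltransferases gave no call. Crebbp and Ep300, close paralogs that acetylate histone H3 lysine 27 at enhancers, were at 168 to 222 and 73.04 to 96.1 CPM over the 10 groups, and their genotype ratios in central Treg cells were -0.11 (-0.18 to -0.04) and -0.14 (-0.26 to -0.03). Kat6a and Kat7, of the MYST family, were at 80.1 to 119 and 47.3 to 64.3 CPM. All 5 had a central Treg ratio below 0 with an interval excluding 0, from -0.35 to -0.11, where the median of all genes was -0.10.

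Of the deacetylases, Hdac1 took opposite signs in the Treg gates. Hdac1, a class I deacetylase of the NuRD, Sin3 and CoREST complexes (GRCm38 chromosome 4, 129516104 to 129542713, minus strand), was at 106 and 81.5 CPM in the central and 89.7 and 103 CPM in the effector gate, a genotype ratio of -0.38 (-0.49 to -0.28) and 0.20 (0.03 to 0.35). Without cycling cells these were -0.43 (-0.55 to -0.31) and 0.04 (-0.16 to 0.25). Hdac2, its close paralog, was at 32.6 to 46.6 CPM over the 10 groups. Hdac3, the enzyme of the NCoR complex (GRCm38 chromosome 18, 37935844 to 37955016, minus strand), was called higher in fl/fl CD8 cells, 16.4 and 26.6 CPM, with the wide interval of few counts, 0.70 (0.11 to 1.32). It was not called without cycling cells (0.63) or with cells thinned to 2500 UMIs (1.13). Both values are past 1.5-fold, so the call ended on the interval or the CPM minimum and not on size. The corepressor Ncor1 stayed at 256 to 388 CPM and the NAD-dependent deacetylase Sirt1 at 29.8 to 43.1 CPM.

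The largest ratios of the members over the 14 comparisons were between B cells and conventional CD4 cells. In the +/+ library 3 members were called higher and 7 lower in B cells (background 19% higher and 17% lower), and in fl/fl 2 higher and 5 lower (background 19.6% higher and 17.7% lower). As shares of the measured members these are 24.4% and 17.1%. Chd3, an ATPase of NuRD (GRCm38 chromosome 11, 69343273 to 69369406, minus strand), was at 205 and 192 CPM in the central Treg gate, 157 and 119.5 in the effector Treg gate, 174 and 156 in the conventional CD4 gate, 129 and 109 in the CD8 gate and 33.2 and 30.1 in the B cell gate. B cells were the lowest group in both libraries, with a ratio to conventional CD4 cells of -2.39 (-2.68 to -2.10) in +/+ and -2.38 (-2.60 to -2.16) in fl/fl. Its paralog Chd4 showed no such gap, at 167 and 139.6 CPM in conventional CD4 and 159 and 159 CPM in B cells. Kat2b, or PCAF, a GCN5-type acetyltransferase (GRCm38 chromosome 17, 53566861 to 53672720, plus strand), was at 143 and 112 CPM in the central Treg gate, 95.02 and 92.9 in the effector Treg gate, 115 and 92.05 in the conventional CD4 gate, 70.2 and 70.9 in the CD8 gate and 46.8 and 39.3 in the B cell gate. Its B cell ratio was -1.29 (-1.55 to -1.04) and -1.23 (-1.45 to -1.01) in +/+ and fl/fl.

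Kdm2b and Mbd2 were also lower in B cells of both libraries. The ratio of Kdm2b to conventional CD4 cells was -1.05 and -1.32, and that of Mbd2 -0.89 and -0.68. Higher in B cells were 2 SWI/SNF genes. Smarca4, the ATPase BRG1 (GRCm38 chromosome 9, 21616169 to 21704230, plus strand), was at 61.7 and 55.7 CPM in conventional CD4 and 106 and 95.1 CPM in B cells, a ratio of 0.78 (0.55 to 1.00) and 0.77 (0.56 to 0.99). Smarcb1, a core subunit (GRCm38 chromosome 10, 75896769 to 75921617, minus strand), was at 31.1 and 36.9 and 55.8 and 62.5 CPM, a ratio of 0.84 (0.53 to 1.16) and 0.76 (0.50 to 1.03). The alternative ATPase Smarca2 (BRM) lay the other way, at -0.64 and -0.54, and was called in +/+ only. Without cycling cells Smarca4 was at 0.51 in fl/fl and not called. Called in 1 library were also Bmi1 (0.61, interval 0.09 to 1.13 in +/+), Tet3 (-0.60 in +/+), Dnmt1 (-0.67 in +/+) and Eed (-0.61 in fl/fl). With cells thinned to 2500 UMIs Bmi1 was at 0.55 and Eed at -0.45, neither called. Both libraries' ratios share no cells with each other, but within a library all ratios to conventional CD4 cells share those cells.

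**Figure D4:**
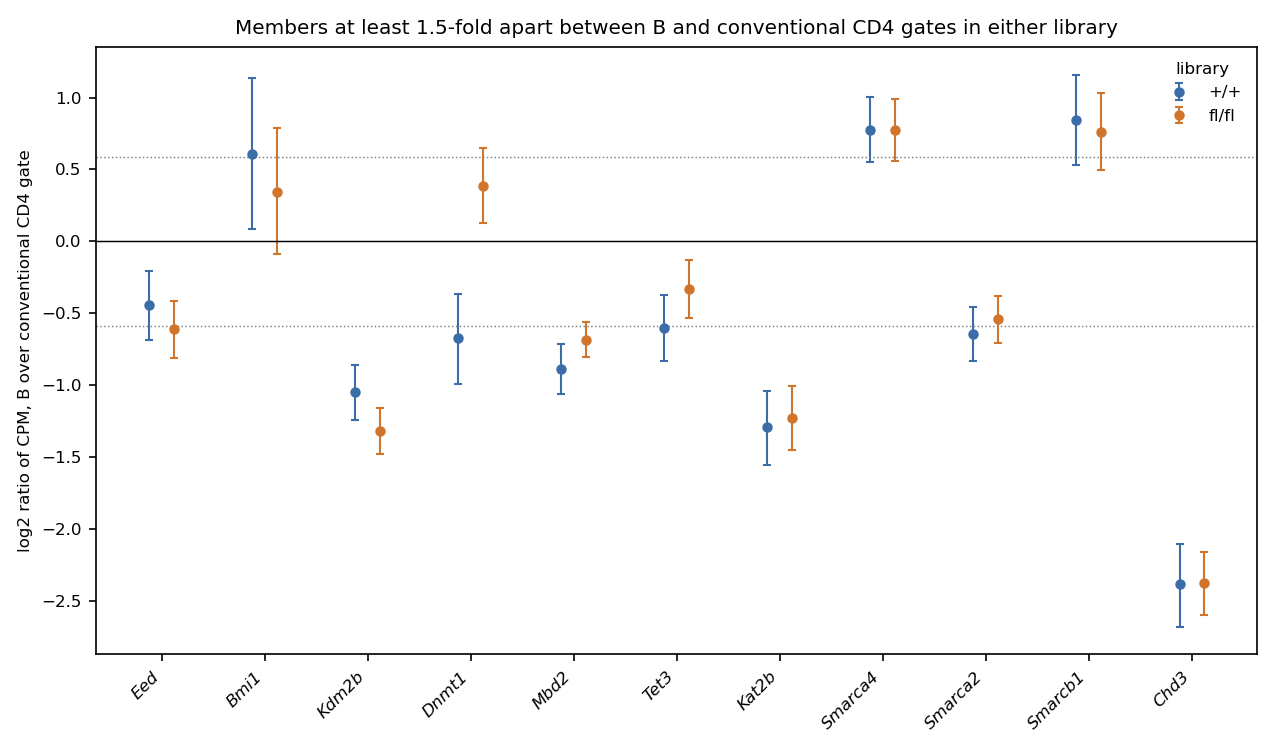
Log2 ratio of CPM, B cell over conventional CD4 gate, of the 11 members called in either library, +/+ (blue) and fl/fl (orange), with 95% counting intervals and dotted lines at 1.5-fold. Chd3 is lowest in both libraries, and Dnmt1 is on opposite sides of 0.

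Few members were called between CD8 and conventional CD4 cells. Intervals excluding 0 numbered 2 above and 12 below in +/+ (34.1% of the measured members, against 26.5% of all genes). In fl/fl they numbered 0 above and 9 below (22.0% against 27.6%). Of all genes 994 lay above and 1144 below in +/+, and 951 above and 1232 below in fl/fl. In +/+ 1 member was called lower (background 5.75% higher and 6.25% lower), Kat2b at -0.71 (-0.98 to -0.45), and in fl/fl none (background 5.47% higher and 5.95% lower), where Kat2b was at -0.38 (-0.63 to -0.13). Between genotypes in B cells Dnmt1 (35.2 and 54.6 CPM, 0.63, interval 0.34 to 0.93) and Men1 (12.7 and 19.3 CPM, 0.60, interval 0.11 to 1.12) were called higher in fl/fl. Cycling markers summed to 442 and 872 CPM in those B cells, the CD8 and cytotoxic markers to 87.5 and 313 CPM, 4 neutrophil markers to 112 and 7.48 CPM and 2 erythroid markers to 192 and 1.90 CPM. The part of the last 3 lists in these ratios was not tested. For cycling cells, without cycling cells Dnmt1 was at 0.32 and not called. Without cells above 3 times the median UMI count it was at 0.16, and Men1 was at 0.54 and not called with cells thinned to 2500 UMIs.

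The remaining SWI/SNF genes gave no call in any comparison. Arid1a and Arid1b, alternative subunits of the BAF complex, were at 197 to 254 and 175 to 358 CPM over the 10 groups, Arid2, of the PBAF complex, at 67.9 to 96.2 CPM and the scaffold Smarcc1 at 59.7 to 90.5 CPM. Arid2 lies 2.43 Mb from Kmt2d on chromosome 15, and its genotype ratio was -0.11 (-0.22 to -0.00) in central and 0.09 (-0.09 to 0.26) in effector Treg cells.

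The partners that KMT2D shares with other KMT2 enzymes gave no call between genotypes in any T cell gate. The core subunits Wdr5, Rbbp5, Ash2l and Dpy30 were at 15.6 to 20.8, 12.2 to 17.3, 20.5 to 29.3 and 65.98 to 85.2 CPM over the 10 groups. In central Treg cells their ratios were -0.18 (-0.44 to 0.09), -0.31 (-0.58 to -0.03), -0.24 (-0.46 to -0.03) and 0.14 (0.01 to 0.27). In effector Treg cells they were -0.12 (-0.52 to 0.27), -0.15 (-0.56 to 0.25), -0.11 (-0.41 to 0.19) and 0.12 (-0.06 to 0.29). Paxip1, which binds KMT2C and KMT2D, was at 15.1 and 18.7 CPM in the central gate, 0.31 (0.04 to 0.58), and at 17.01 and 21.5 CPM in the effector gate, 0.34 (-0.02 to 0.70). Men1, the menin subunit of the KMT2A and KMT2B complexes, was at -0.10 (-0.39 to 0.20) and -0.09 (-0.52 to 0.32). Pagr1a was at 0 to 1.81 CPM; it shares exons on its strand with Pagr1b and Gm42742, so its counts are uncertain.

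Among genes of histone methylation, the demethylase genes Kdm5a and Kdm5c and the methyltransferase genes Setd2, Nsd1 and Dot1l gave no call in any comparison. Kdm5a and Kdm5c, which remove methyl groups from histone H3 lysine 4, were at 123 to 147 and 91.3 to 112 CPM over the 10 groups, with central Treg ratios of -0.13 (-0.22 to -0.04) and -0.14 (-0.24 to -0.03). Kdm5c is X-linked, and Xist was at 975 to 1556 CPM in every gate of both libraries. Setd2 and Nsd1, which methylate histone H3 lysine 36, were at 99.6 to 146 and 169 to 224 CPM, and Dot1l, the lysine 79 methyltransferase, at 23.9 to 33.2 CPM. In effector Treg cells their genotype ratios were -0.21 (-0.36 to -0.05), 0.07 (-0.04 to 0.18) and -0.25 (-0.54 to 0.04). Over the 10 groups 31 of the 41 measured members (75.6%) had a highest level under 2 times their lowest, against 66.3% of the 6827 genes measured in every comparison. Over the 14 comparisons 15 of the 41 were called at least once (36.6%, background 52.1%) and 26 in none. Whether the members differ from other genes in this was not tested.

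A list of 119 other chromatin genes gives the setting. In central Treg cells 2 of 106 measured were called higher and 5 lower in fl/fl (all genes: 2.97% higher and 8.01% lower). In effector cells 0 of 105 were called higher and 3 lower (all genes: 4.17% higher and 8.65% lower). As shares, 6.60% and 2.86% of the measured list were called, against 10.99% and 12.8% of all genes. Cbx7, a PRC1 subunit that reads lysine 27 methylation, went from 34.9 to 11.98 CPM in central (-1.54, interval -1.78 to -1.31) and from 43.4 to 11.5 CPM in effector cells (-1.91, interval -2.33 to -1.52), +/+ to fl/fl, a larger ratio than that of any member in these gates. Lower were also Phf1, a PRC2 accessory subunit (38.5 to 23.2 CPM, -0.73), and Hdac5 (10.6 to 6.47 CPM, -0.72) in central cells, and the class IIa deacetylases Hdac7, which lies 0.987 Mb from Kmt2d on chromosome 15 (99.5 to 53.1 CPM, -0.91) and Hdac4 (89.4 to 53.6 CPM, -0.74) in effector cells. Higher in fl/fl central cells were the oxidase Tet1 (7.41 to 14.4 CPM, 0.95) and Uhrf1, the partner that brings DNMT1 to replicated DNA (7.05 to 11.98 CPM, 0.76). Between the Treg gates 8 of 105 were higher and 1 lower in effector cells of +/+ (all genes: 16.1% higher and 4.34% lower). In fl/fl 9 were higher and 4 lower (all genes: 19.7% higher and 4.7% lower). As shares these are 8.57% and 12.4% of the measured list, against 20.5% and 24.4% of all genes. The highest were Uhrf1 (1.57), the lysine 36 methyltransferase Nsd2 (1.17) and the remodeller Chd7 (0.96) in +/+, and Bcl7c (1.10), Baz1a (0.90) and Aebp2 (0.85) in fl/fl. Cycling cells made up 3.34% of central and 9.78% of effector cells in +/+, and 7.55% and 16.5% in fl/fl. Their part in the Uhrf1 ratios was not tested. The lowest was Kat2a in +/+ (-0.65), and Tet1 (-0.93), Pcgf5 (-0.84) and Bcl7a (-0.75) in fl/fl.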

How the data were processed

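Libraries were made with a 10x Genomics 3' V3.1 kit, per the labels' protocols, 1 per genotype, each from 3 pooled mice. The authors deposited raw UMI counts per gene and barcode, not normalized. Cell Ranger 7.1.0, fastp and Seurat 4.1.1 and the builds mm10 and GRCm38 are listed in the submitters' processing notes. The filters behind the deposited barcodes, and whether intronic reads were counted, are not given in the sources used here. The members, gene lists, gates and comparisons were chosen with earlier results of these data known.

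The deposited 7947 (+/+) and 8784 (fl/fl) barcodes held 53680614 and 63989234 UMIs. Barcodes under 500 genes or over 10% mitochondrial counts were left out, leaving 7790 and 8634. T cells had at least 3 UMIs over Cd3e, Cd3d and Cd3g, at most 1 over Cd79a, Cd79b and Ms4a1 and at most 2 over Lyz2, Csf1r, Camp and Ngp. Of T cells with at most 1 UMI over Cd8a and Cd8b1, Treg cells had at least 1 of Foxp3 or 3 of Ikzf2 (875 and 715 had Foxp3), and conventional CD4 cells at least 1 of Cd4 and none of Foxp3 or Ikzf2. Central and effector cells had at least 3 UMIs of their markers and 2 times those of the other list. Results for some marker genes are not reported here. CD8 cells were T cells with at least 2 UMIs over Cd8a and Cd8b1 and none of Cd4 or Foxp3, and B cells at least 3 over Cd79a, Cd79b and Ms4a1 with at least 1 of Ms4a1, at most 1 over the Cd3 genes and the same myeloid limit. In no gate were 2251 and 2363 kept cells. No doublet caller was run, and 167 and 205 cells with both T and B markers were left out. None of the 10 genes of highest fold in any gate was a marker of another class.

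Counts were summed per library and gate and scaled to CPM, with exact Poisson intervals, and ratios have exact conditional binomial intervals, at 95%. The call rule and its background cover all measured genes. All members are accounted for, with values in full for those called. Of the other chromatin list, called genes in the Treg genotype and effector over central comparisons are named, up to 3 a direction. Gene positions come from GENCODE on GRCm38. There were 14 alternatives, with Python 3.11.15, NumPy 2.4.6, SciPy 1.17.1, pandas 2.3.3 and matplotlib 3.10.9. The calculation was tested on simulated data.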

Additional observations from a re-analysis of the deposited data

Results flagged for a closer look

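Some members had ratios of opposite sign, each with an interval excluding 0, in 2 gates under the same contrast or in the 2 libraries. With 1 library per genotype the difference itself was not tested.

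Dnmt1 had a fl/fl over +/+ ratio above 0 in effector Treg cells (0.26, interval 0.07 to 0.45) and B cells (0.63, interval 0.34 to 0.93) and below 0 in conventional CD4 cells (-0.43, interval -0.71 to -0.15). Its ratio of all Treg to conventional CD4 cells was -0.26 (-0.45 to -0.06) in +/+ and 0.26 (0.04 to 0.50) in fl/fl, and that of B to conventional CD4 cells -0.67 (-0.99 to -0.36) and 0.38 (0.13 to 0.65). The summed level of 13 cycling markers was 759 and 1187 CPM in effector Treg, 442 and 872 CPM in B and 603 and 405 CPM in conventional CD4 cells of +/+ and fl/fl. The share of cycling cells was 9.78% and 16.5% in effector Treg, 5.73% and 7.35% in B and 3.73% and 5.34% in conventional CD4 cells, so in conventional CD4 cells the share was higher in fl/fl where the marker sum was lower. Their part in the Dnmt1 ratios was examined only by leaving out cycling cells. Genotype ratios were then 0.11 (-0.19 to 0.41) in effector Treg, 0.32 (-0.08 to 0.73) in B and -0.15 (-0.49 to 0.18) in conventional CD4 cells, all 3 including 0. The cells left out held 23.9 to 62.1% of the Dnmt1 counts of these groups. Leaving them out thus also widens the intervals, and these ratios cannot decide the part of cycling cells.

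Hdac1 had a ratio below 0 in central (-0.38, interval -0.49 to -0.28) and above 0 in effector Treg cells (0.20, interval 0.03 to 0.35), so that its effector over central ratio was -0.25 (-0.38 to -0.11) in +/+ and 0.33 (0.19 to 0.48) in fl/fl. These values rest on the same 4 groups of cells. Men1 had a B to conventional CD4 ratio of -0.55 (-1.10 to -0.01) in +/+ and 0.46 (0.02 to 0.92) in fl/fl, at 18.6 and 14.03 CPM in conventional CD4 and 12.7 and 19.3 CPM in B cells. These levels rest on 44 to 152 Men1 counts in B cells and 59 to 92 in conventional CD4 cells.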

How the results depend on the processing

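No paired analysis was possible because the 2 libraries share only replicate number 1, and with 1 library per genotype none was left out. Over 34 results for a called member, 14 alternatives gave 280 values, of which 208 kept the call, 72 lost it and 0 changed sign. Not every alternative was run on every result. Ratios of B and CD8 to conventional CD4 cells had 4 alternatives each and genotype ratios in CD8 and B cells 10. Results with a Treg gate had 12 or 14. Counts of called members gave 138 values, 48 of them more than 1.5 times from the reported count. Those 48 follow, with the lowest and highest share of all measured genes called under the same setting in the same comparisons, between genotypes and then within a library. A member is 2.44% of the 41 measured.

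With a lower fold of 0.32 on the log2 scale the members called between genotypes were 8 in central, 7 in effector, 6 in all Treg, 2 in conventional CD4, 3 in CD8 and 4 in B cells. They were 10 and 10 for effector over central and 7 and 5 for all Treg over conventional CD4, in +/+ and fl/fl (all genes: 10.2 to 29.2% and 25.1 to 47.3%). With a fold of 2 they were 0 between genotypes in central, effector, all Treg, CD8 and B cells, 0 for effector over central in both libraries, 0 for all Treg and 0 for CD8 over conventional CD4 in +/+, and 3 and 3 for B over conventional CD4 (all genes: 1.74 to 4.47% and 4.91 to 22.7%). With cells thinned to 2500 UMIs the counts were 2 in central, 6 in effector, 2 in conventional CD4 and 1 in B cells between genotypes, and 3 and 2 for all Treg over conventional CD4 (all genes: 4.999 to 13.5% and 14.4 to 15.2%). The 6 in effector cells were 14.6% of the members, against 13.5% of all genes in that comparison. With cells weighted alike they were 1 in conventional CD4 and 1 in B cells between genotypes, 2 for all Treg over conventional CD4 in +/+, and 1 and 2 for effector over central (all genes: 5.68 to 6.22% and 13.5 to 24.5%). Without cycling cells they were 0 in CD8 and 1 in B cells between genotypes, 0 and 2 for effector over central and 2 and 1 for all Treg over conventional CD4 (all genes: 4.51 to 5.45% and 12.97 to 24.1%). Without cells above 3 times the median UMIs they were 1 in B cells between genotypes, 0 and 2 for effector over central and 2 for all Treg over conventional CD4 in +/+ (all genes: 4.30% and 12.8 to 23.8%). With Treg cells from a Foxp3 UMI only they were 2 in central cells between genotypes, 0 for effector over central in +/+, and 2 and 3 for all Treg over conventional CD4 (all genes: 13.98% and 13.4 to 20.9%). A CPM minimum of 20 gave 1 of 37 in B cells between genotypes (all genes: 3.62%). Median scaling gave 2 in all Treg cells between genotypes (all genes: 10.7%), and members' medians of -0.020 there and -0.079 and -0.073 for effector over central. The causes of these moves were not tested.

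Depth limits members at 10 to 30 CPM (Men1, Bmi1, Hdac3, Paxip1, Rbbp5, Wdr5, Ezh1 and Ash2l), where a 1.5-fold difference is at the edge of the counting interval in CD8 and B cells. Cells are not replicates, so the spread between mice is unknown, and gates set by marker UMIs shift with depth.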
